A study of Homo sapiens with 4 samples.

Results

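Non-muscle myosin II is the motor that pulls on actin filaments in non-muscle cells. The genes described here are 10 named parts of it and of its control: the heavy chain genes MYH9, MYH10 and MYH14, the regulatory light chain genes MYL9, MYL12A and MYL12B, the kinase genes MYLK, ROCK1 and ROCK2, and the phosphatase subunit gene PPP1R12A. They were taken by gene symbol, with no threshold on their values, and all 10 were found among the 58735 genes of the count table. SW1990, an established human pancreatic adenocarcinoma cell line grown in DMEM, was the only line studied. Treated cells had gomisin G, a lignan found in Schisandra fruits, at 10 µM for 24 h (2 libraries). Their controls had vehicle for the same 24 h (2 libraries). RNA was sequenced after removal of ribosomal RNA, per the labels. Whether replicate libraries stem from separate cultures is not stated, so the p-values rest on a spread between libraries that may be technical.

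Each myosin II molecule holds a pair of heavy chains with essential and regulatory light chains. Phosphorylation of the regulatory light chain lets the motor assemble into filaments and contract. Myosin light chain kinase (gene MYLK) and the ROCK kinases (ROCK1 and ROCK2) add that phosphate. Myosin phosphatase, whose targeting subunit MYPT1 is the product of PPP1R12A, removes it, and the ROCK kinases inhibit the phosphatase. In epithelial and carcinoma cells the resulting tension bears on YAP, the coactivator that the series names, and on cell shape and migration. These are protein activities, and the counts report transcripts only.

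The 3 regulatory light chain genes are shown first by the stretch that carries the shared target of these kinases, because it shows how alike the genes are that the counts must separate. The coding sequence is from GENCODE release 29 on GRCh38, on the plus strand, and the capitals mark the adjacent threonine and serine codons that are phosphorylated. The stretches lie in coding exons at chr20:36544915-36544968 for MYL9, chr18:3253275-3253328 for MYL12A and chr18:3272929-3272982 for MYL12B.
MYL9: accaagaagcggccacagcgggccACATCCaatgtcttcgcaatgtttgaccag
MYL12A: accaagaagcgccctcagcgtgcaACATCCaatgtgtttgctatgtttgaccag
MYL12B: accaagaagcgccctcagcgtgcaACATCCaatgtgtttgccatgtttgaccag
Counted from the start codon as 1, the capitals are codons 19 and 20 in MYL9 and MYL12B and codons 18 and 19 in MYL12A. In these 54 bases MYL12A and MYL12B differed at 1 base, and MYL9 differed from each of them at 7. Over the whole coding sequence MYL12A and MYL12B were 95.2% identical, and MYL9 was 78.9% identical to MYL12A and 80.8% identical to MYL12B. Over all annotated transcripts, however, MYL12A and MYL12B shared only 3 stretches of 75 bases. The largest such overlap of a member was that of ROCK1, of whose 75-base stretches 8.1% also occur in its pseudogene ROCK1P1. The treatment of reads that match several places is unknown here, so the values of MYL12A, MYL12B and ROCK1 are uncertain to that extent.

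Total counts per library were 15034663 and 15245770 with gomisin G and 14580848 and 14901526 with vehicle. Levels are in CPM, counts scaled to library size with TMM factors, and levels of different genes are compared per kb of annotated exon length. Of all genes 15721 passed the expression filter, and edgeR's quasi-likelihood test called 287 of them at a Benjamini-Hochberg adjusted p below 0.05, which is 1.83% (0.922% rose and 0.903% fell). That count was 2835 and 6322 with gomisin G replicate 1 or 2 left out, and 160 and 135 with vehicle replicate 1 or 2 left out. A gene is said to have risen or fallen only if it was called. The pair of gomisin G libraries differed from each other far more than the vehicle pair did, with a chi-square per gene of 37.2 against 6.98, and the difference followed gene length. In gomisin G replicate 1 the median log2 difference from the vehicle mean was 0.33 for genes up to 2 kb and -0.37 for genes over 8 kb. In gomisin G replicate 2 these medians were 0.10 and -0.043. Of the 9 tested members 7 are over 8 kb long, so this trend moves with their results, and a fit with the trend removed is given beside them.

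SW1990 cells held mainly MYL12B, MYL12A and MYH9 transcripts of this set, as the plot of levels shows. Per kb, MYL12B averaged 314.6 ± 88.0 CPM with gomisin G and 355.9 ± 27.8 CPM with vehicle (mean ± SD, n = 2 libraries each). MYL12A averaged 105.4 ± 24.2 CPM per kb with gomisin G and 95.9 ± 11.9 with vehicle, and MYH9 averaged 48.1 ± 15.7 with gomisin G and 75.5 ± 3.29 with vehicle. In vehicle the order went on through ROCK1 (23.0 ± 0.152), ROCK2 (18.6 ± 0.324), MYH10 (13.9 ± 1.57), MYH14 (11.9 ± 0.843) and PPP1R12A (6.12 ± 0.478). Each of these neighbours was apart in both vehicle libraries, with MYH10 and MYH14 closest at 12.7 and 14.97 against 11.3 and 12.5. With gomisin G, ROCK1 (13.1 ± 4.91), MYH14 (12.7 ± 4.44), ROCK2 (10.5 ± 3.29) and MYH10 (10.5 ± 3.49) overlapped one another. MYL9 and MYLK were scarce in both groups, at 0.0346 ± 0.0143 and 0.0741 ± 0.0079 CPM per kb with gomisin G and 0.132 ± 0.0831 and 0.107 ± 0.0372 with vehicle, and their vehicle ranges overlapped. The exon length used for MYLK covers its long isoforms, so its level per kb is low if only short ones were made.

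**Figure D1:**
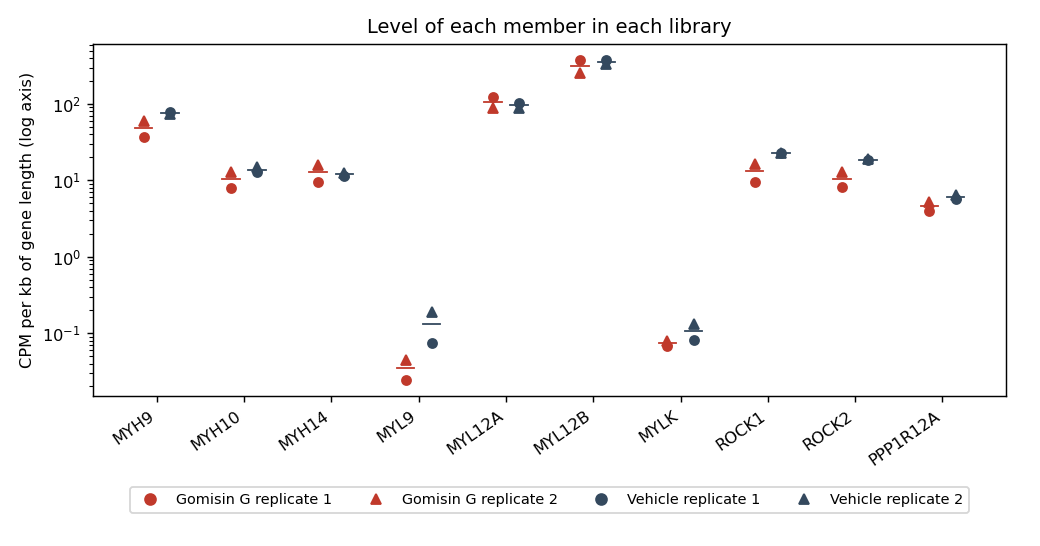
Level of each of the 10 members in each library, in CPM per kb of gene length on a log axis, with gomisin G (red) left of vehicle (dark blue) and short lines at the group means (n = 2). MYL12B, MYL12A and MYH9 stand highest, and MYL9 and MYLK lie below 1 CPM per kb in all 4 libraries.

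None of the 9 tested members was called. ROCK2, ROCK1 and MYH9 had the largest negative log2 changes, from -0.82 to -0.65, and lay lower in both gomisin G libraries than in both vehicle libraries. Of the 9 members, edgeR called 0 and found an unadjusted p below 0.05 for 3, DESeq2 called 2 (ROCK1 and ROCK2) and limma voom called 0. Over all tested genes DESeq2 called 5.62% and limma voom 1.58%. An unadjusted p below 0.05 in edgeR was found for 20.6% of all tested genes, and for 9.62% with a negative change, as all 3 members had. The log2 change was negative for 7 members and positive for 2, with a median of -0.41, against 0.0092 over all tested genes and -0.19 over the 2880 tested genes longer than 8 kb. Both gomisin G libraries lay below both vehicle libraries for 5 of the 9, against 27.3% of all tested genes and 40.8% of those longer than 8 kb. The reverse held for 0 of the 9, against 27% of all tested genes and 14.4% of those longer than 8 kb.

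The ROCK genes are taken first. ROCK1 had 107 and 184 CPM with gomisin G, against 257 and 255 CPM with vehicle. The vehicle libraries nearly coincided, the gomisin G libraries were both lower, and replicate 1 was the lower of them. The log2 change was -0.82 (SE 0.25, edgeR adjusted p = 0.127). ROCK2, the close paralog that phosphorylates much the same substrates, had 83.4 and 131 CPM with gomisin G, against 187 and 191 CPM with vehicle. It showed the same order of libraries as ROCK1, with no overlap between the groups. Its log2 change was -0.82 (SE 0.22, edgeR adjusted p = 0.0972), the lowest p of the set. On the log2 scale, replicate 1 of gomisin G was at -1.26 for ROCK1 and -1.18 for ROCK2 from the vehicle mean, and replicate 2 at -0.48 and -0.53. DESeq2 called both, with an adjusted p of 0.0218 for ROCK1 and 0.0127 for ROCK2.

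With the length trend removed, the log2 change of ROCK2 was -0.66 (SE 0.14) and passed edgeR's threshold (adjusted p = 0.0411), whereas that of ROCK1 was -0.64 (SE 0.16) and did not (adjusted p = 0.0605). Without gomisin G replicate 1 the changes were -0.48 for ROCK1 and -0.54 for ROCK2, and without gomisin G replicate 2 they were -1.26 and -1.18. The spread in these fits comes from the vehicle pair alone, so calls of members in them are not given. The balance of the paralogs moved little. ROCK1 made up 53.9% and 56.3% of their summed counts per kb with gomisin G, against 55.7% and 54.9% with vehicle. The mean difference of -0.238 percentage points was smaller than the spread within either group, and its sign turned without gomisin G replicate 1 (0.954 points). ROCK1P1, which shares sequence with ROCK1 and is expressed at a low level, had 10.8 and 10.6 CPM with gomisin G, against 7.73 and 8.68 CPM with vehicle (log2 change 0.39, edgeR adjusted p = 0.328), so its values lay in the other direction from those of ROCK1.

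MYLK, the calcium- and calmodulin-dependent light chain kinase gene, was near the edge of detection. It had 22 and 28 counts with gomisin G, against 26 and 44 with vehicle. In CPM these were 1.52 and 1.77 with gomisin G and 1.79 and 2.96 with vehicle, so the groups were apart by little and vehicle replicate 2 stood highest. The log2 change of -0.53 had an SE of 0.39 (edgeR adjusted p = 0.467), and with the length trend removed it was -0.22 (SE 0.37). Exons of MYLK overlap those of the antisense gene MYLK-AS1, which had 43 counts over the 4 libraries, and with the strand setting of the counting not given, reads within that overlap cannot be assigned. Only 0.646% of the 75-base stretches of MYLK occur in any other gene.

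The phosphatase subunit gene PPP1R12A had 47.5 and 62.7 CPM with gomisin G, against 69.0 and 77.0 CPM with vehicle. The groups did not overlap, but the gap between gomisin G replicate 2 and vehicle replicate 1 was smaller than the spread within either group. The log2 change was -0.41 (SE 0.19, edgeR adjusted p = 0.264), and with the length trend removed it was -0.19 (SE 0.12). Without gomisin G replicate 2 it was -0.62. An antisense gene whose exons overlap, PPP1R12A-AS1, had 47 counts over the 4 libraries against 3826 of PPP1R12A. Per kb, ROCK1 stood at 2.41 and 3.15 times PPP1R12A with gomisin G, against 4.005 and 3.55 times with vehicle. ROCK2 stood at 2.06 and 2.45 times PPP1R12A with gomisin G, against 3.18 and 2.92 times with vehicle. These 3 genes are of like length, at 11113, 10145 and 11932 bases, and in both ratios the gomisin G libraries were lower than the vehicle libraries.

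**Figure D2:**
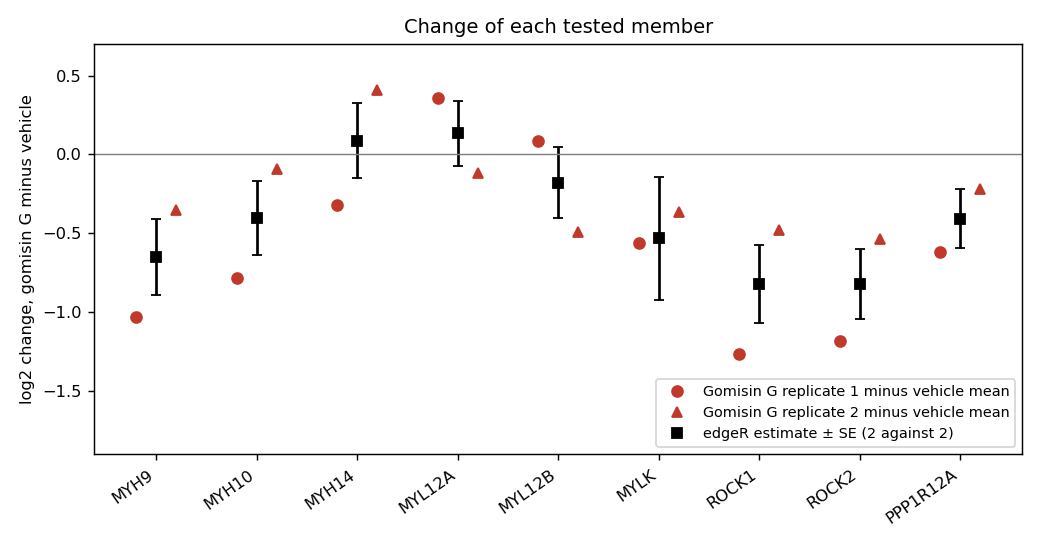
Log2 change of each of the 9 tested members, as the edgeR estimate with its SE (black squares) and as each gomisin G library minus the vehicle mean (red). ROCK1, ROCK2, MYH9, MYH10, MYLK and PPP1R12A lie below 0 in both gomisin G libraries, and MYH14, MYL12A and MYL12B lie on opposite sides of 0 in the 2 libraries.

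Among the heavy chains, MYH9, which encodes the main motor chain of myosin IIA, was lower with gomisin G in both libraries without passing the test, and MYH14 was not. MYH9 had 334 and 533 CPM with gomisin G, against 701 and 659 CPM with vehicle. The groups did not overlap, and gomisin G replicate 1 lay farther below replicate 2 than replicate 2 lay below vehicle replicate 2. MYH9 had a log2 change of -0.65 (SE 0.24, edgeR adjusted p = 0.184), and -0.52 (SE 0.17, adjusted p = 0.116) with the length trend removed. Leaving out gomisin G replicate 1 gave -0.35, and leaving out replicate 2 gave -1.03. MYH10, the myosin IIB chain gene, had 72.4 and 117 CPM with gomisin G, against 115 and 135 CPM with vehicle, and the groups overlapped. Its log2 change was -0.40 (SE 0.23, edgeR adjusted p = 0.367), and -0.26 (SE 0.16) with the length trend removed. Without gomisin G replicate 1 it was -0.098, and without gomisin G replicate 2 it was -0.79. MYH10 exons overlap those of NDEL1 on the opposite strand, which had 3142 counts against 6570 of MYH10 over the 4 libraries, so some reads there cannot be assigned.

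MYH14, the myosin IIC chain gene of many epithelia, had 99.1 and 164 CPM with gomisin G, against 117.9 and 130.3 CPM with vehicle. The gomisin G libraries lay on either side of both vehicle libraries. The log2 change was 0.087 (SE 0.24, edgeR adjusted p = 0.866), and leaving out gomisin G replicate 2 turned it to -0.32, whereas leaving out replicate 1 gave 0.40. Its direction thus hung on which gomisin G library was used. With the length trend removed the change was 0.25 (SE 0.16, edgeR adjusted p = 0.364).

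The proportions of the heavy chains varied less between the gomisin G replicates than their levels did. The 3 heavy chain genes are of similar length (9012, 9011 and 10392 bases), and their shares were alike in the gomisin G libraries although their levels were not. MYH9 made up 67.8% and 67.3% of heavy chain counts per kb with gomisin G, against 76.4% and 72.7% with vehicle. MYH14 made up 17.5% and 18.0% with gomisin G, against 11.1% and 12.5% with vehicle. MYH10 made up 14.7% in both libraries with gomisin G, against 12.5% and 14.9% with vehicle. The mean share was 6.97 percentage points lower for MYH9 with gomisin G (67.5 ± 0.382% with gomisin G, 74.5 ± 2.61% with vehicle, SD, n = 2 each) and 5.93 points higher for MYH14 (17.7 ± 0.359% with gomisin G, 11.8 ± 0.934% with vehicle). Both differences exceeded the SD within the groups. The exact two-sided permutation p was 0.333 for each, which is the smallest that 2 libraries against 2 allow. Leaving out any 1 library, or using counts without the length correction, kept the differences between -8.81 and -5.13 points for MYH9 and between 5.27 and 6.59 points for MYH14.

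Neither of the regulatory light chain genes that could be tested was called. MYL12B had 728 and 487 CPM with gomisin G, against 726 and 649 CPM with vehicle. Gomisin G replicate 1 stood level with vehicle and replicate 2 below it. MYL12B had a log2 change of -0.18 (SE 0.23, edgeR adjusted p = 0.688). The change was 0.083 without gomisin G replicate 2 and -0.50 without replicate 1. With the length trend removed it was -0.42 (SE 0.15, edgeR adjusted p = 0.141). MYL12A, its neighbour on chromosome 18, had 397 and 286 CPM with gomisin G, against 339 and 284 CPM with vehicle, and the groups overlapped. Its log2 change was 0.14 (SE 0.21, edgeR adjusted p = 0.744). The change was -0.12 without gomisin G replicate 1 and 0.35 without replicate 2. With the length trend removed it was 0.028 (SE 0.16). MYL12A is annotated at 3247481 to 3256236 and MYL12B at 3261479 to 3278431, on the same strand.

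The proportions of MYL12A and MYL12B varied less between replicates than their levels in both groups. MYL12A made up 24.5% and 25.9% of regulatory light chain counts per kb with gomisin G, against 21.7% and 20.6% with vehicle. The groups did not overlap, and the mean difference was 4.03 points (25.2 ± 0.978% with gomisin G, 21.2 ± 0.773% with vehicle, SD, n = 2 each, exact permutation p = 0.333, the smallest possible here). MYL12A and MYL12B differ in length (3245 and 1932 bases), and the part of the length trend in this share was not tested. MYL9, the light chain gene typical of smooth muscle, had 1 and 2 counts with gomisin G, against 3 and 8 with vehicle, and was not tested. The summed counts of 3 with gomisin G and 11 with vehicle gave a ratio of 0.264 (95% exact interval 0.0473 to 0.999, counting error only).

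**Figure D3:**
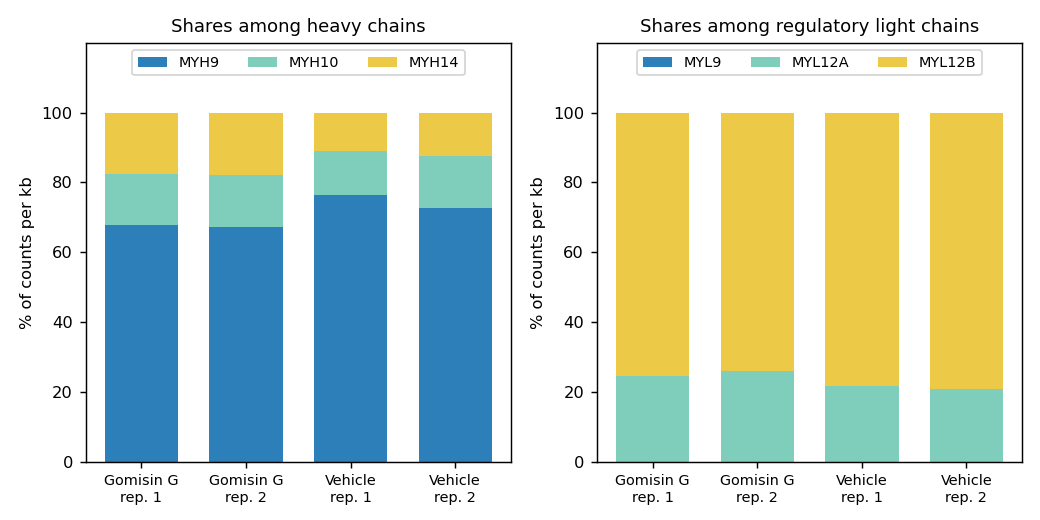
Shares of the 3 heavy chain genes (left) and the 3 regulatory light chain genes (right) in the counts per kb of each family, for each library, with gomisin G left of vehicle. MYH14 takes 17.5% and 18.0% with gomisin G against 11.1% and 12.5% with vehicle, and MYL9 is too scarce to be seen.

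Summed per kb, the heavy chains stood at 54.6 and 88.0 CPM with gomisin G, against 101.9 and 100.7 CPM with vehicle. The regulatory light chains stood at 499 and 341 CPM with gomisin G, against 480 and 424 CPM with vehicle. The ratio of light to heavy chain transcripts was therefore 9.14 and 3.87 with gomisin G, against 4.71 and 4.21 with vehicle. Gomisin G replicate 1, the library with the stronger length trend, alone stood apart. The light chain genes are 1932 to 3245 bases long and the heavy chain genes 9011 to 10392 bases. The part of the length trend in this ratio was not tested. In these bulk samples fewer cells of a kind and less RNA per cell cannot be told apart.

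The plot by gene length places each member beside other genes of its length. In gomisin G replicate 1, MYH14 (-0.32) lay near the median of genes over 8 kb (-0.37), and ROCK1, ROCK2 and MYH9 lay lower, at -1.26, -1.18 and -1.03. In gomisin G replicate 2, where that median was -0.043, the same 3 genes lay at -0.48, -0.53 and -0.35. MYH10, MYLK and PPP1R12A also lay below that median in both libraries. They were at -0.78, -0.56 and -0.62 in gomisin G replicate 1 and at -0.09, -0.36 and -0.22 in gomisin G replicate 2. MYL12B lay below the median of genes up to 2 kb in both. With the trend removed, 1 of the 9 members was called by edgeR, against 5.91% of all tested genes.

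**Figure D4:**
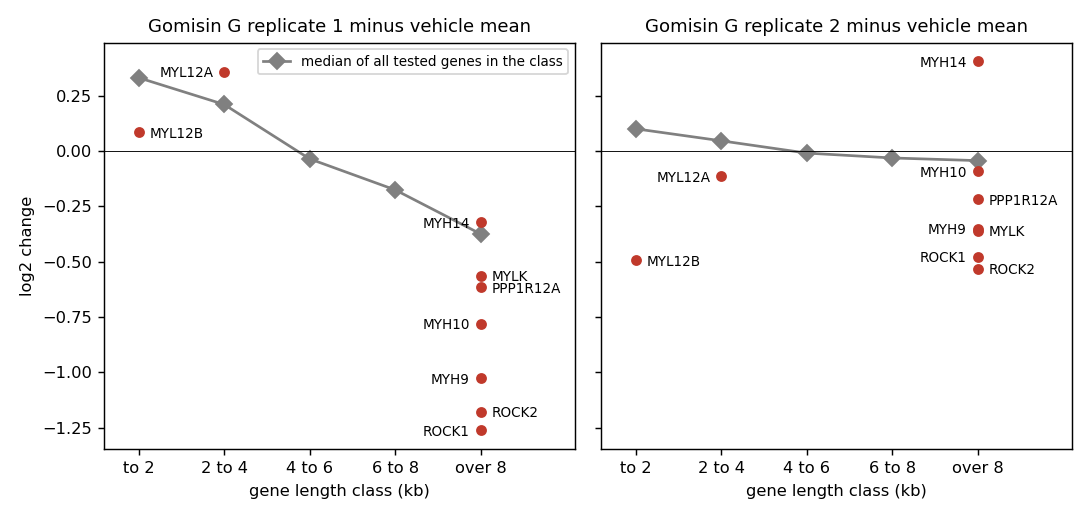
Log2 difference from the vehicle mean of each tested member (red) and median of all tested genes (grey), by class of gene length, for each gomisin G library. The grey line goes from 0.33 in the shortest class to -0.37 in the longest in replicate 1 and is nearly flat in replicate 2. ROCK1, ROCK2, MYH9, MYH10, MYLK, PPP1R12A and MYL12B lie below it in both.

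The genes whose profile over the 4 libraries was nearest to that of ROCK2, by Euclidean distance between centred log2 CPM values, were PHIP (0.0437), URB1 (0.0501) and SLC7A1 (0.0505). The search took in the 10359 genes whose mean log2 CPM reached 3. Each is a long gene, at 13252, 11461 and 7692 bases, and their log2 changes were -0.80, -0.80 and -0.78. With 4 libraries many genes share such a profile.

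The promoters of the 3 members with the lowest p-values were read for motifs of the factors that act with YAP and with actin tension. The sequences are the 250 bases before a RefSeq start on GRCh38.p14, each on the minus strand, at chr22:36387968-36388217 for MYH9, chr18:21111814-21112063 for ROCK1 and chr2:11345438-11345687 for ROCK2. The capitals mark CATTCC, the core letters bound by TEAD factors, or its reverse complement, and the CArG box of serum response factor.
MYH9: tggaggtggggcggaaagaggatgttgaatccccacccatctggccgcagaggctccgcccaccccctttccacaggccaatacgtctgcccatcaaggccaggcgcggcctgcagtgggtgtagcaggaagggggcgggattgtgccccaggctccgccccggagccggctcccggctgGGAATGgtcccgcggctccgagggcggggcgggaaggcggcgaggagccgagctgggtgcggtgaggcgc
ROCK1: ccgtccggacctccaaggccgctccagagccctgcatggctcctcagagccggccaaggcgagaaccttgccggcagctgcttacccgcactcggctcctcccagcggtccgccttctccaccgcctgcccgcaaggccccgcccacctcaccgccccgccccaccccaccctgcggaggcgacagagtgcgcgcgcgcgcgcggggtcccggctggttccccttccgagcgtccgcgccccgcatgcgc
ROCK2: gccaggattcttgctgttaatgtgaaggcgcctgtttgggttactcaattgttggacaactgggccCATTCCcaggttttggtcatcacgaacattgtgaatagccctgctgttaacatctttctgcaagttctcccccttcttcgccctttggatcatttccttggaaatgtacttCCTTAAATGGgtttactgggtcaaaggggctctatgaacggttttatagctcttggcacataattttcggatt
MYH9 held 1 CATTCC match, on the opposite strand at 70 to 65 bases before the start. ROCK2 held 1 such match and 1 CArG box, at 73 to 64 bases before this start. Neither was found before the other of its 2 RefSeq starts. The window of that other start, chr2:11344637-11344886, is not printed, so the one shown for ROCK2 is the one with matches. Both windows lie inside the annotated ROCK2 gene, which spans 11179761 to 11348330. ROCK1 held none of these motifs. Over both strands and windows that also take in 50 bases after the start, CATTCC was found in 6 of the 9 members with a promoter entry and in 14% of all 35116 promoters. The 9 members had 17 windows in all, so a member had more than 1 chance to match. The CArG box was found in 2 members (MYLK and ROCK2) and 1.29% of all promoters, and TGANTCA, the AP-1 motif, in 0 members and 7.71%. The only MYLK window, chr3:123620549-123620798 on the minus strand, lies inside the gene, which spans 123610049 to 123884331. That internal start is near the end of the gene and far from its outermost annotated start. The CArG box and CATTCC matches of MYLK both belong to it. These are matches of letters, not sites.

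Beside these 10 genes, 49 further genes of the pathway were examined, and 44 were tested. Of these 0 rose and 1 fell in edgeR's test, beside 0.922% and 0.903% of all tested genes. The unadjusted p of that test was below 0.05 for 16 of the 44, against 20.6% of all tested genes. Their median log2 change was -0.12. The call was NUAK1, as the plot of the pathway shows.

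Of the 9 tested genes of myosin phosphatase and its inhibitors 1 fell and 8 were not called. NUAK1, a kinase that phosphorylates MYPT1, had 6.29 and 7.89 CPM with gomisin G, against 15.2 and 16.4 CPM with vehicle. Its log2 change was -1.15 (SE 0.21, edgeR adjusted p = 0.0419). Leaving out a vehicle library ended the call (adjusted p = 0.106 for replicate 1 and 0.197 for replicate 2), as did upper-quartile factors (0.0504).

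The other 3 lists had 0 called genes by edgeR. Its unadjusted p was below 0.05 for 6 of 13, 4 of 10 and 3 of 12, against 20.6% of all tested genes. Among the essential light chains and filament partners, the contractile ring scaffold ANLN had a log2 change of -0.80 (edgeR adjusted p = 0.0583) and S100A4, whose product binds the MYH9 chain and disassembles its filaments, one of 1.12 (adjusted p = 0.0601). Among other kinases that can act on the regulatory light chain, PAK1 had 0.56 (edgeR adjusted p = 0.117) and CDC42BPG, which encodes an MRCK kinase, 0.64 (adjusted p = 0.122). Among ROCK substrates and the cofilin branch, MARCKS had 0.69 (edgeR adjusted p = 0.0646) and the radixin gene RDX -0.60 (adjusted p = 0.0924). MYL6, the main non-muscle essential light chain gene and named here after its values were seen, had 575 and 353 CPM with gomisin G, against 346 and 270 CPM with vehicle, and a log2 change of 0.59 (edgeR adjusted p = 0.241). Apart from MYL6, these genes were named for the lowest p of their lists, so further calls of them in the same data are not separate results. With the length trend removed, ANLN, S100A4, PAK1, CDC42BPG and MARCKS passed the threshold and RDX did not (edgeR adjusted p = 0.0614), beside 5.91% of all tested genes. DESeq2 called ANLN, S100A4, CDC42BPG, MARCKS and RDX but not PAK1 (DESeq2 adjusted p = 0.115), beside 5.62% of all tested genes. The unnamed genes of these lists are not given for those fits.

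**Figure D5:**
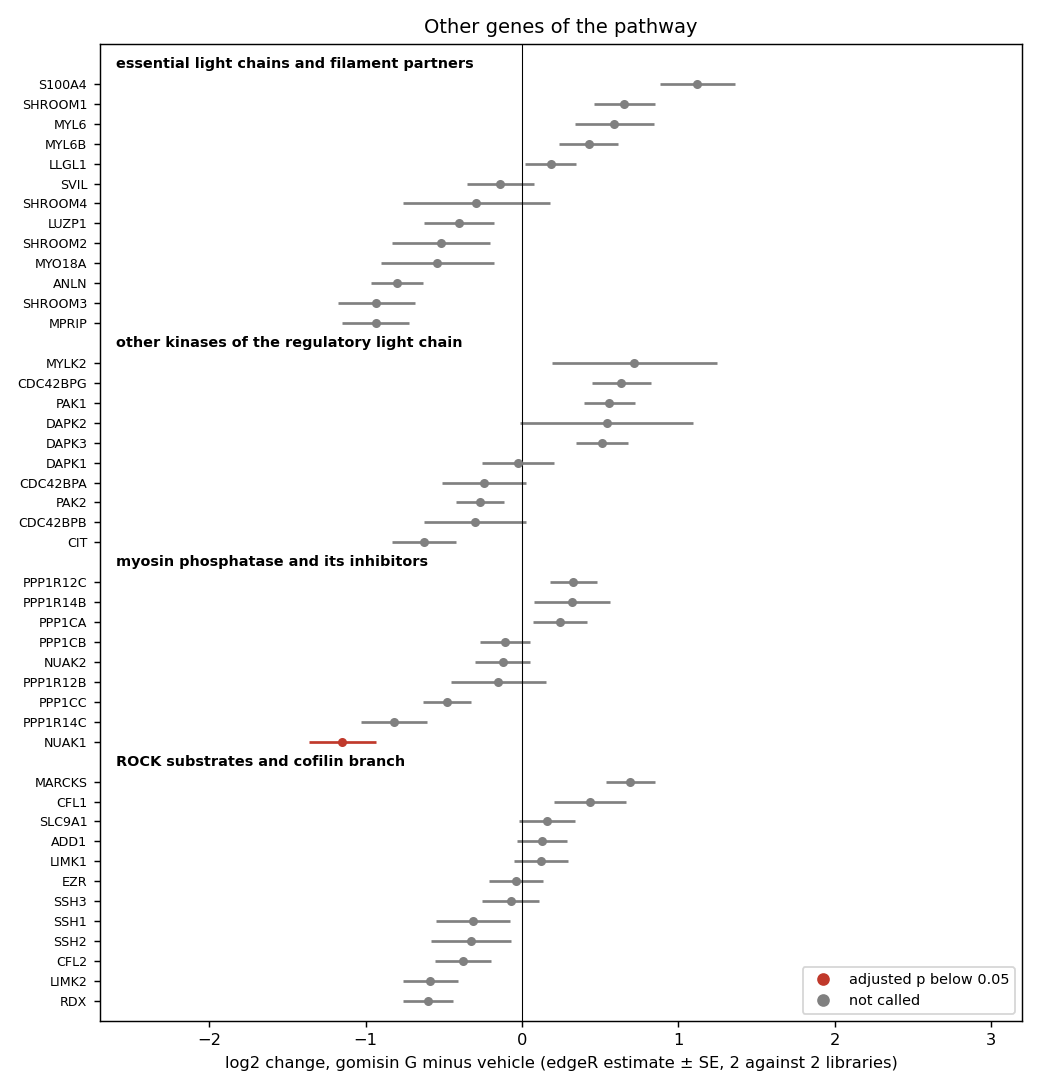
Log2 change with its SE of the 44 tested pathway genes beside the members, by list, from the edgeR fit of 2 gomisin G against 2 vehicle libraries. NUAK1 fell (red), and the genes in grey, S100A4 and ANLN among them, were not called.

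Markers of smooth muscle, where MYL9 and MYLK are abundant, and of striated muscle and fibroblasts were low in sum beside those of duct epithelium. The 8 smooth muscle markers summed to 40.3 and 37.1 CPM with gomisin G, against 28.6 and 35.7 CPM with vehicle, and most of this was SMTN. Of them DES had 0 counts in 3 of the 4 libraries and CNN1 stayed below 0.14 CPM. The 8 striated muscle markers summed to 42.8 and 31.4 CPM with gomisin G, against 38.6 and 25.8 CPM with vehicle, nearly all of it TNNI2, and 4 of the 8 were at 0 in all libraries. The 7 fibroblast markers summed to 8.57 and 11.99 CPM with gomisin G, against 4.69 and 4.91 CPM with vehicle, with COL1A2 and LUM at 0 throughout. Most of that sum came from COL1A1 (log2 change 0.83, edgeR adjusted p = 0.189) and PDGFRB (log2 change 1.57, edgeR adjusted p = 0.0548), both higher in both gomisin G libraries than in both vehicle libraries. The 7 markers of duct epithelium, most of it from the keratin genes KRT8 and KRT18, summed to 9341 and 7010 CPM with gomisin G, against 11230 and 9435 CPM with vehicle. KRT19, EPCAM and MUC1 lay the other way from that sum, with both gomisin G libraries above both vehicle libraries and log2 changes of 0.68, 0.29 and 0.83. KRT7, also a duct marker, had 30 and 14 counts with gomisin G and 14 and 13 with vehicle. None of these markers was called by edgeR.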

How the data were processed

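RNA-seq counts per gene were analysed for SW1990 cells with gomisin G (2 libraries) or vehicle (2 libraries). The authors deposited raw counts, made with fastp, HISAT2 and featureCounts on hg38 per the submitters' processing notes; versions, strand setting and treatment of multiply matching reads are not given in the sources used here. The whole-series and per-sample tables differed in 0 values. The gene lengths in bases that the authors deposited (a value of no other unit) and the coordinates of all 58735 genes equalled GENCODE release 29 on GRCh38. Groups follow the labels.

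Genes were tested with edgeR 4.0.16 in R 4.3.3: default expression filter by group, TMM factors, robust quasi-likelihood F test, treatment as the only term (2 residual degrees of freedom), Benjamini-Hochberg adjustment over all 15721 tested genes. Log2 changes are gomisin G minus vehicle; log2 values per library use a prior count of 2. DESeq2 1.42.0 and limma 3.58.1 voom were alternatives, as were other factors, filters, leaving out each library, and a loess of log2 deviation on log length as offset. The test was also run on simulated counts, and the outcome is not given here. Those counts had the same spread in both groups, unlike these libraries. Sequences came from GENCODE transcripts and RefSeq promoters (9 of 10 members matched; no entry for MYL9).

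All members are named; from each list up to 4 called genes, or the 2 with the lowest p where none was called; and the 3 genes nearest the member with the lowest p. One further list was set up and is not reported here. The members and lists were chosen with earlier results of these data known. Intervals and floors cover counting error only, and 3 counts equal 0.189 to 0.207 CPM.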

Additional observations from a re-analysis of the deposited data

How the results depend on the processing

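Counts of calls moved with the processing. Beside 287 called genes and 0 called members, DESeq2 called 883 and 2, the fit with the length trend removed 929 and 1, the fit with a replicate block 2886 and 4, and the fit with the block and the length trend removed 2891 and 4. Leaving out 1 library at a time gave 135 to 6322 called genes and 0 to 7 called members. The most members were called without gomisin G replicate 2, in the fit that also called the most genes. These fits tested 16572 and 16377 genes without gomisin G replicate 1 or 2, and 16671 and 16607 without vehicle replicate 1 or 2. In that order the median log2 change of the 9 tested members was -0.35, -0.65, -0.52 and -0.28. Over all tested genes it was -7e-04, -0.018, 0.021 and 0.015. Fits without a gomisin G library take their spread from the vehicle pair and assume that the lone library varies likewise. RLE and upper-quartile factors, both other filters, limma voom and the legacy fit kept 0 called members, and without the expression filter all 10 members were tested.

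The replicate numbers are titles alone and are not said to mark a shared culture or day. Deviations of same-numbered libraries correlated at 0.215 over genes, and with 2 pairs this does not show pairing. The fit with the block called 2886 of the 15721 tested genes. It left fewer residual degrees of freedom than the 2 of the main fit. Under the block the called members were MYH9 (edgeR adjusted p = 0.00547), MYH10 (0.0471), ROCK1 (4.12e-05) and ROCK2 (2.8e-05). With the length trend also removed, 2891 of the 15721 tested genes were called. In that fit MYH10 was not called (0.128) and MYL12B was (-0.43, edgeR adjusted p = 0.0436), beside MYH9, ROCK1 and ROCK2.

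Directions turned for MYH14 without gomisin G replicate 2 (range over the libraries left out -0.32 to 0.40), MYL12A without replicate 1 of gomisin G (-0.12 to 0.35) and MYL12B without replicate 2 of gomisin G (-0.50 to 0.083). The ROCK1 share turned without gomisin G replicate 1 or vehicle replicate 1, and its difference ranged from -1.43 to 0.954 points, within the spread. The causes of these turns were not tested. With 2 libraries per group, the SE of members with over 1000 counts in a library was 0.19 to 0.25 on the log2 scale, which limits what could be called.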
